A study of Homo sapiens with 6 samples.

Results

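The SLAM family of lymphocyte surface receptors, with its 2 SH2-domain adaptors, was examined in MM.1S, a cell line from human multiple myeloma, with and without CD38. The genes were taken by name from the authors' count table. The 8 receptors were SLAMF1, SLAMF6, SLAMF7, SLAMF8, CD48, CD84, CD244 and LY9, and the 2 adaptors SH2D1A and SH2D1B, 10 of the 60671 genes in the table. RNA came from 3 libraries of wild-type MM.1S cells (WT) and 3 of MM.1S cells edited with CRISPR/Cas9 at CD38 (CD38 KO), a surface enzyme that breaks down NAD and is a target of myeloma antibodies. Both lines carried GFP and click beetle red luciferase from a lentivirus. The knockout line is 1 clone (E9 in the library names), and live cells had been sorted, CD38-positive for WT and CD38-negative for CD38 KO. The comparison is therefore between this clone and this WT population, and a trait of the clone cannot be told apart from an effect of CD38 loss.

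Most SLAM receptors bind their own kind on a neighbouring cell. CD48, held in the membrane by a GPI anchor, instead binds CD244 (2B4) and, more weakly, CD2. The cytoplasmic tails of most members carry tyrosine switch motifs that recruit SAP, the product of SH2D1A, or EAT-2, the product of SH2D1B. SAP brings in the kinase FYN. Without an adaptor the same motifs can bind the phosphatases SHP-1 (PTPN6), SHP-2 (PTPN11) and SHIP-1 (INPP5D). In plasma cells and myeloma SLAMF7 (CS1) is the best known member, as the target of the antibody elotuzumab.

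The libraries held 61515519 to 72335496 counts. CD38 had 2545 to 3148 counts in the WT libraries and 48 to 80 in the CD38 KO libraries, in the direction of the labels. Levels are given as CPM (counts scaled to library size with TMM factors, in the usual unit of that name), and per kilobase of exon where genes are compared with each other. Where a gene had 0 counts, up to 3 per library remain possible, which averages 0.0438 CPM for WT and 0.0486 CPM for CD38 KO. Intervals from counts and these floors cover counting error only. Of 9 plasma cell markers, 8 reached 1 CPM in at least 1 library (SDC1, TNFRSF17, XBP1, IRF4, PRDM1, JCHAIN, MZB1 and POU2AF1), and CD27 did not. The summed level of the 9 was 6946 to 6995 CPM for WT and 9069 to 9098 CPM for CD38 KO. Most of that rise was in JCHAIN (943.2 to 1950 CPM) and XBP1 (1315 to 2217 CPM). At an edgeR adjusted p under 0.05, 5 of the 8 tested were higher in CD38 KO and MZB1 was lower. SDC1 and POU2AF1 were not past it (75% called, beside 44.4% of all tested genes). The 8 T cell markers summed to 2.13 to 3.11 CPM for WT and 6.10 to 6.46 CPM for CD38 KO, the 8 myeloid markers to 2.38 to 3.17 and 1.26 to 1.81 CPM, the 8 NK cell markers to 62.6 to 70.04 and 57.2 to 62.5 CPM, most of it NCAM1 (CD56), and the 7 B cell markers to 75.8 to 81.4 and 41.7 to 42.2 CPM, most of it CR2 and CD79B. Of all these markers S100A8 alone had 0 counts in every library. In each of the T cell, myeloid, NK cell and B cell lists, 2 genes reached 1 CPM in at least 1 library. Genes of 1 list differed widely, as these examples, named after their values were seen, show. CD3D, CD14 and NCR1 summed to 4, 19 and 2 counts over the 6 libraries. In the same lists CD3E had 201 counts in WT and 896 in CD38 KO, ITGAM 339 and 67, and KLRF1 209 and 520.

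Except for SLAMF8 and the adaptors, the members stand side by side on chromosome 1. In GENCODE 29 (build GRCh38) the 7 genes SLAMF6, CD84, SLAMF1, CD48, SLAMF7, LY9 and CD244 follow each other from 160485030 to 160862855, within 377.8 kb. Relative to the start site of SLAMF6, that of SLAMF8 lies at -696.5 kb and that of SH2D1B at 1889 kb, and SH2D1A on chromosome X, from 124227868 to 124373197. No source used here gives the genome build behind the authors' counts, and these positions come from the annotation, matched through the Ensembl identifiers.

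A pair of upstream sequences from this cluster are shown because their genes stood at opposite ends of the comparison: SLAMF6 had the largest difference of the family, and CD48 (188.6 kb away and on the same strand) had one of the smallest. RefSeq (GRCh38.p14) gave the windows for 7 of the 10 members. The bases printed end where the GENCODE gene begins, and the capitals mark GGAAGT, the core that ETS family factors recognise. The SLAMF6 stretch is chr1:160523263-160523505 on the minus strand and that of CD48 chr1:160711852-160712072 on the minus strand, each written 5′ to 3′ along its gene.
SLAMF6: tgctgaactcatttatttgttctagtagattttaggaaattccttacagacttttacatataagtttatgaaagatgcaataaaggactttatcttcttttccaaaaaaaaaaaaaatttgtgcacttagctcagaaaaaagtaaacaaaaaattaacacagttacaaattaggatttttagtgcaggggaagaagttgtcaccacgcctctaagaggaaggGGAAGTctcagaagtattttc
CD48: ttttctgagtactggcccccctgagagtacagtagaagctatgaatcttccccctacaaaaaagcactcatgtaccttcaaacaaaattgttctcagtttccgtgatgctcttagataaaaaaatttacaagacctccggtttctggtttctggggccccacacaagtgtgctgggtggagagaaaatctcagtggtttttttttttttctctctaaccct

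Over the 250 bases before the RefSeq start, searched on both strands, SLAMF6 held 1 GGAAGT, beginning 28 bases before the start, and CD48 held 0. SLAMF8 also held 1 GGAAGT, beginning 149 bases before its start, and SLAMF1, CD244, SH2D1A and SH2D1B held 0. That motif was in 19.5% of all 35116 RefSeq windows of that length. Neither window held the octamer ATGCAAAT (1.63% of all windows) or the AP-1 site TGANTCA (6.57%). These are matches of letters and say nothing of binding in MM.1S cells.

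SLAMF7, CD48 and LY9 made up nearly all SLAM receptor RNA in both lines. In WT the levels per kilobase of exon were 151.7 ± 0.553 CPM per kb for SLAMF7, 30.2 ± 0.813 for CD48, 22.2 ± 0.909 for LY9 and 3.93 ± 0.419 for SLAMF6 (SD, n = 3). SLAMF7 ranked 182 among 19874 protein-coding genes on this scale in WT and 279 in CD38 KO. CD48 ranked 1544 and 1522, and LY9, a homophilic receptor also called CD229, ranked 2151 and 1966. In CPM not divided by length LY9 was above CD48, at 202.9 and 98.8 in WT and 223.1 and 102.3 in CD38 KO. The order of CD48 and LY9 per kilobase, and their shares of receptor RNA, thus rest on the exon lengths used. These lengths join all annotated exons of a gene, 9118 bases for LY9 and 3274 for CD48.

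The remaining receptors were low. SLAMF1 stood at 0.145 ± 0.0199 CPM per kb in WT, CD84 at 0.0663 ± 0.0187 and CD244 at 0.0635 ± 0.0160 (SD, n = 3), and CD84 and CD244 did not differ beyond their spread. In CD38 KO the order SLAMF7, CD48, LY9 was the same on this scale. SLAMF6 (0.130 ± 0.185 CPM per kb) stood there below SLAMF1 (0.248 ± 0.0497; SD, n = 3), with a spread that reached past it, so that these neighbours in the order could not be separated.

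**Figure D1:**
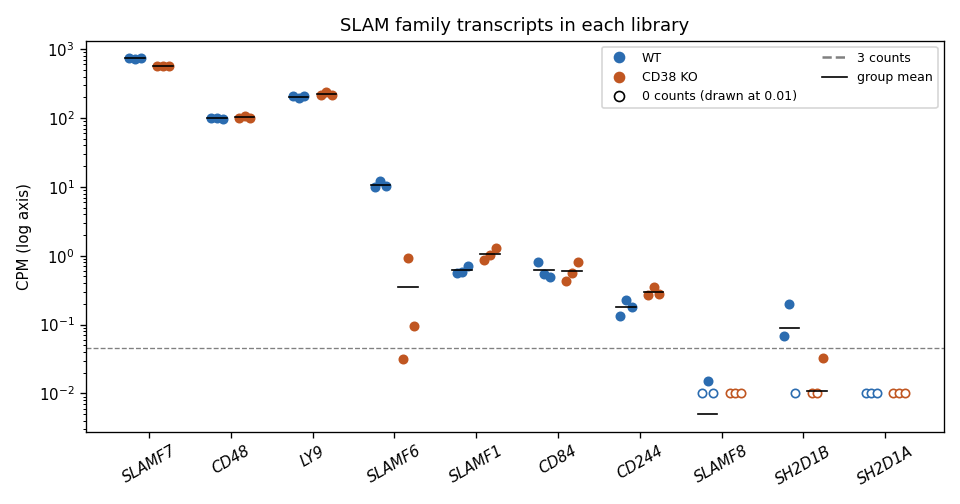
CPM of each SLAM family gene (log axis) in the 3 WT and 3 CD38 KO libraries; points are libraries, short lines are group means, open points have 0 counts and are drawn at 0.01, and the dashed line is the average level of 3 counts. SLAMF6 drops from 10.02 to 12.1 CPM in WT to 0.0313, 0.941 and 0.0969 CPM in CD38 KO, SLAMF7 is lower in all CD38 KO libraries, and SH2D1A has 0 counts throughout.

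Against WT, 4 of the 7 members that passed the filter on low counts passed the threshold, an adjusted p of 0.05 in edgeR: SLAMF6 and SLAMF7 fell (21.6% of all tested genes did), and SLAMF1 and LY9 rose (22.8% did). CD48, CD84 and CD244 were not past the threshold, and SLAMF8, SH2D1A and SH2D1B had too few counts to be tested. Of all 20120 tested genes, 44.4% were called, so the share of called members (57.1%) is near that of genes at large. WT and CD38 KO libraries were fully separated in CPM for 5 of the 7 (SLAMF1, SLAMF6, SLAMF7, CD244 and LY9), against 52.5% of all tested genes. The median log2 fold change of the 7 was 0.050, beside 0.00021 for all tested genes.

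SLAMF6 (NTB-A), a homophilic receptor that activates natural killer and T cells, was nearly lost. It had 742, 803 and 673 counts in WT replicates 1, 2 and 3, or 10.02, 12.1 and 10.2 CPM. CD38 KO replicates 1, 2 and 3 held 2, 56 and 6 counts, or 0.0313, 0.941 and 0.0969 CPM. The lowest WT library was more than an order of magnitude above the highest CD38 KO library, and CD38 KO replicate 2 stood well above the others. The log2 fold change was -4.95 ± 0.793 (SE; edgeR adjusted p = 0.00747), a level 30.9-fold higher in WT with a 95% interval of 7.05 to 135.3. A fall at least as large in an edgeR call was found for 0.268% of all tested genes. Without CD38 KO replicate 2 the log2 fold change was -7.37 (edgeR adjusted p = 1.91e-14), and limma-voom gave -6.13. Over all 14 alternatives the value lay between -7.37 and -4.39. In these bulk libraries fewer cells with the transcript and less transcript per cell cannot be told apart.

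The SLAMF6 level of CD38 KO replicate 2 was 8.72% of the WT mean, against 0.290% and 0.897% in replicates 1 and 3. A set of 12 other protein-coding genes, chosen after values were seen, also had at least 5 CPM in WT and at most 10 counts in CD38 KO replicates 1 and 3 together. In CD38 KO replicate 2 their levels had a median of 0.0765% of WT and a highest value of 1.76%, for APBA2, and 5 of the 12 had 0 counts. One of them was the lysosomal protease CTSL, at 30.8 CPM in WT. SLAMF6 stood above all 12 in that library. It was set beside them because it was high there, so this order describes the values and is not a test. CD38 itself had 80 counts there and 51 and 48 in replicates 1 and 3.

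SLAMF7, the most abundant member, fell by a smaller step with little spread. Its level was 734.6, 730.1 and 734.8 CPM in WT replicates 1, 2 and 3 and 561.3, 573.9 and 562.3 CPM in those of CD38 KO. All 3 CD38 KO libraries were below all WT libraries, at 77.2% of the WT mean. The log2 fold change was -0.37 ± 0.0343 (SE; edgeR adjusted p = 1.18e-08), and the WT level was 1.30-fold higher with a 95% interval of 1.23 to 1.36. The fall passed the threshold under all 14 alternatives, between -0.46 and -0.36. A fall at least as large in an edgeR call was found for 14% of all tested genes.

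Ratios of counts within a library, which no scaling factor enters, gave the same order. WT libraries held 7.43, 7.20 and 7.65 SLAMF7 counts per CD48 count, and CD38 KO libraries 5.58, 5.43 and 5.59. Per LY9 count they held 3.51, 3.77 and 3.57 in WT and 2.58, 2.43 and 2.61 in CD38 KO. SLAMF6 counts per SLAMF7 count were 0.0147 ± 0.00163 in WT and 0.000623 ± 0.000883 in CD38 KO (SD, n = 3). The groups did not overlap in any of these 3 ratios (two-sided exact permutation p = 0.1 for each, the smallest that 3 against 3 libraries can give, and 0.1 after adjustment over the 4 ratios computed). LY9 per CD48 was 2.06 ± 0.128 in WT and 2.18 ± 0.0468 in CD38 KO (SD, n = 3; exact permutation p = 0.1). Its groups did not overlap either, but only just, with 2.140 the highest value in WT and 2.141 the lowest in CD38 KO.

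**Figure D2:**
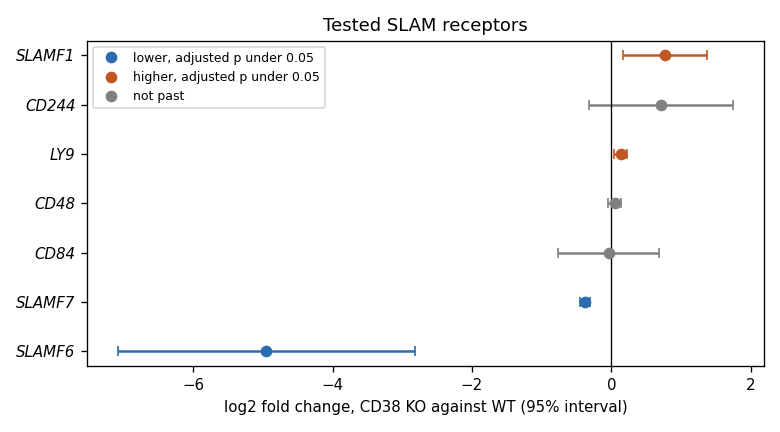
Log2 fold change of CD38 KO against WT (horizontal axis) for the 7 tested SLAM receptors, with 95% intervals; blue is lower and orange higher at an edgeR adjusted p under 0.05, grey is not past it. SLAMF6 lies at -4.95, SLAMF7 at -0.37 with a short interval, and the intervals of CD48, CD84 and CD244 cross 0.

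LY9 and SLAMF1 were higher in CD38 KO, and neither call was kept under all alternatives. LY9 was at 209.4, 193.6 and 205.6 CPM in WT replicates 1, 2 and 3 and at 217.9, 235.7 and 215.5 CPM in CD38 KO. The groups did not overlap, but the gap between them was small beside their spread. Its log2 fold change was 0.14 ± 0.0444 (SE; edgeR adjusted p = 0.0160), and the call was lost with library size alone as the scaling (0.05, edgeR adjusted p = 0.317), without WT replicate 2 (0.0876) and without CD38 KO replicate 2 (0.0789).

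SLAMF1 (CD150), the founding member and a measles virus receptor, had 41, 39 and 47 counts in WT replicates 1, 2 and 3 and 56, 60 and 80 in CD38 KO. Every CD38 KO library was above every WT library, all at 0.554 to 1.29 CPM. Its log2 fold change was 0.77 ± 0.287 (SE; edgeR adjusted p = 0.0338). The call was lost with library size alone (edgeR adjusted p = 0.0562) and with no filter on low counts (0.0774). It was also lost without WT replicate 1 (0.113), WT replicate 2 (0.0924) or CD38 KO replicate 3 (0.156).

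CD48, the ligand of CD244, differed little between the lines. Its level was 98.8, 101.4 and 96.1 CPM in WT replicates 1, 2 and 3 and 100.5, 105.6 and 100.6 CPM in CD38 KO. The groups overlapped. The log2 fold change was 0.050, with a 95% interval of -0.043 to 0.14 (edgeR adjusted p = 0.393), and -0.034 with library size alone. An antisense transcript, AL121985.1, shares 976 exon bases with CD48 and had 27 to 94 counts per library, against 6234 to 7314 for CD48. Whether the counting used strand is not given in the sources used here.

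CD84, a homophilic receptor of B cells and platelets, and CD244, the CD48 receptor of natural killer cells, had few counts. CD84 had 60, 36 and 32 counts in WT replicates 1, 2 and 3 and 27, 33 and 51 in CD38 KO, with overlapping groups. Its log2 fold change was -0.038, with a 95% interval of -0.76 to 0.69, and its sign differed between alternatives (3 of 13 were above 0). CD244 had 10, 15 and 12 counts in WT and 17, 21 and 17 in CD38 KO. Its groups did not overlap, with a log2 fold change of 0.71 in a 95% interval of -0.32 to 1.75 (edgeR adjusted p = 0.267).

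The adaptors were close to or at 0. SH2D1A (SAP) had 0 counts in all 6 libraries, so that any level was below the floor of 3 counts per library. SH2D1B (EAT-2) had 5, 13 and 0 counts in WT replicates 1, 2 and 3 and 0, 0 and 2 in CD38 KO. Over the groups that is 18 against 2 counts, a ratio of WT to CD38 KO of 8.10 with a 95% counting interval of 1.94 to 72.0. WT replicate 3 was also at 0, so the groups overlapped, and in a fit with no filter on low counts the edgeR adjusted p was 0.163. SLAMF8, a receptor of myeloid cells with a short tail, had 1 count in WT replicate 2 and 0 elsewhere, and no fold is given. Entries named SNHG28 on the opposite strand share 2066 and 844 of its 2996 exon bases. They had 9 to 29 and 0 to 4 counts per library. With the strand setting not given, whether this overlap lowered the SLAMF8 counts was not tested.

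The sum of receptor RNA was lower in CD38 KO, and its makeup shifted. The 8 receptors added up to 209.1, 208.0 and 208.0 CPM per kb of exon in WT replicates 1, 2 and 3 and to 171.1, 177.6 and 171.2 CPM per kb in CD38 KO. SLAMF7 made up 72.8% ± 0.257 of the sum in WT and 67.6% ± 0.608 in CD38 KO (SD, n = 3). CD48 went from 14.5% ± 0.393 to 18.02% ± 0.120, LY9 from 10.7% ± 0.415 to 14.1% ± 0.395, and SLAMF6 from 1.89% ± 0.205 to 0.0734% ± 0.104 (SD, n = 3). The groups did not overlap in the sum or in these 4 shares (two-sided exact permutation p = 0.1 each, the smallest possible, among 9 such quantities computed). Shares of 1 sum move together, so the gains of CD48 and LY9 are not independent of the loss of SLAMF7.

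**Figure D3:**
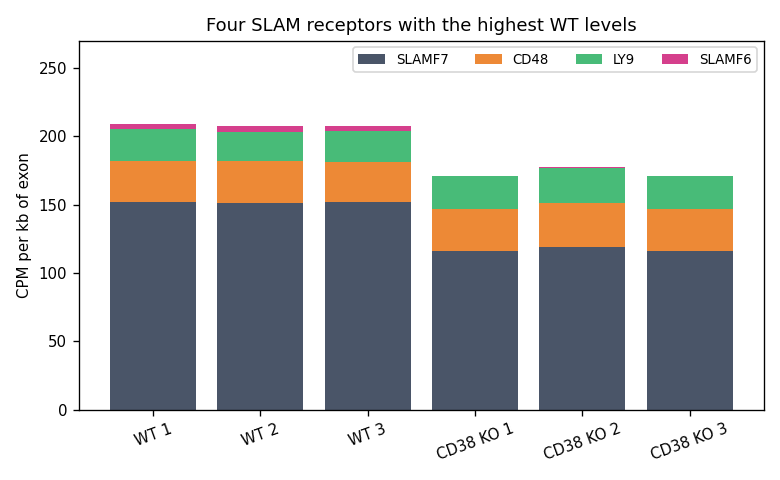
CPM per kilobase of exon (vertical axis, from 0) of SLAMF7, CD48, LY9 and SLAMF6 stacked for each WT and CD38 KO library, 1 bar per library. The bars are lower in CD38 KO mainly through the SLAMF7 segment, and the SLAMF6 segment at the top of the WT bars is too thin to see in CD38 KO.

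Between SLAMF6 and SLAMF7, which fell, lie SLAMF1, which rose, and CD84 and CD48, which were not past the threshold. From SLAMF6 along the chromosome, the log2 fold changes were -4.95 for SLAMF6, -0.038 for CD84, 0.77 for SLAMF1, 0.050 for CD48, -0.37 for SLAMF7, 0.14 for LY9 and 0.71 for CD244. CD84, the nearest gene beyond SLAMF6 and on the same minus strand, is separated from it by 17.8 kb. The start sites of the genes are 56.3 kb apart. On the other side VANGL2 had too few counts to be tested and NHLH1, named after its values were seen, was not past the threshold at 0.246 CPM in WT. The next gene, NCSTN, the gamma-secretase subunit nicastrin, had a log2 fold change of -0.030 (edgeR adjusted p = 0.550), though it was past the threshold with library size alone (-0.11, edgeR adjusted p = 0.00954).

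Of 36 other genes listed for the region, 33 were tested, and 7 rose and 13 fell. Their median log2 fold change was -0.030, and 60.6% were called, against 44.4% of all tested genes. Among those with a mean of at least 5 CPM, 17 of 25 were called, 68%, beside 62.3% of all tested genes at that level. By the smallest adjusted p these were PEA15 (log2 fold change -0.63), an adaptor that holds ERK in the cytoplasm, the galactosyltransferase B4GALT3 (0.48), the phosphatase DUSP23 (-0.72) and TAGLN2 (-0.46), an actin-binding protein. The intelectin ITLN2, named after its values were seen, had the largest fall among them, from 96 counts in WT to 11 in CD38 KO (log2 fold change -2.92, edgeR adjusted p = 0.00321; leaving out CD38 KO replicate 3 gave -5.53 and limma-voom -3.81).

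**Figure D4:**
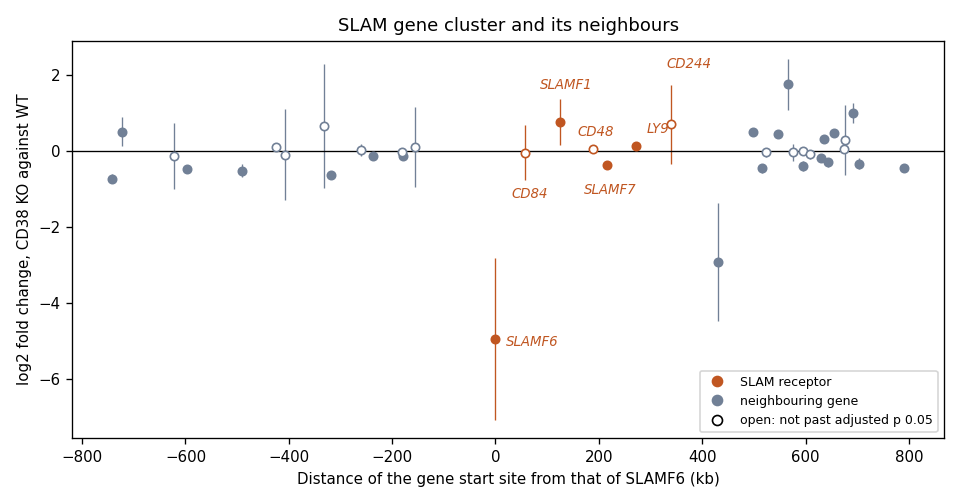
Log2 fold change of CD38 KO against WT with 95% intervals (vertical axis) by the distance of each gene's start site from that of SLAMF6 in kb (horizontal axis); orange marks SLAM receptors, grey their neighbours, and open points are not past an edgeR adjusted p of 0.05. SLAMF6 is the lowest point at -4.95, with CD84, SLAMF1 and CD48 next to it near or above 0. ITLN2 is the next lowest at -2.92, and its interval overlaps that of SLAMF6.

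Of the 5 genes listed around SH2D1A, 3 were tested and 1 rose, and of the 7 found around SH2D1B, 6 were tested, 2 rose and 1 fell (33.3% and 50% called, beside 44.4% of all tested genes). The untested ones, named after their values were seen, were low in both groups: TENM1 had 4 counts in WT and 6 in CD38 KO, GRIA3 19 and 14, and SPATA46 19 and 6. STAG2 is a cohesin subunit whose annotated span overlaps that of SH2D1A with no shared exon base. It stood at 88.8 ± 11.2 CPM for WT and 86.8 ± 1.48 CPM for CD38 KO (SD, n = 3). Its log2 fold change of -0.033 was not past the threshold (edgeR adjusted p = 0.759). Without WT replicate 2 the value was -0.14 and passed it. XIAP, the apoptosis inhibitor, rose by 0.30 (edgeR adjusted p = 0.0155) and lost the call with library size alone (0.0806) and when WT replicate 3 (0.0621) or one of CD38 KO replicates 1 (0.0746) and 3 (0.0683) was left out. Near SH2D1B, the collagen receptor DDR2 rose by a log2 fold change of 1.71 and the kinase UHMK1 fell to -0.40. UAP1, an enzyme of UDP-GlcNAc synthesis, rose by 0.13, a call lost with library size alone (0.05, edgeR adjusted p = 0.306) and with no filter on low counts (0.0575).

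Among relatives of the family, CD58 showed a small difference, and CD2 and SLAMF9 had few counts. CD58 (LFA-3), the high-affinity CD2 ligand, went from 83.1 ± 4.49 to 74.6 ± 0.767 CPM (SD, n = 3), with a log2 fold change of -0.16 (edgeR adjusted p = 0.0138), and lost the call without WT replicate 2 (0.0656) or WT replicate 3 (0.0686). CD2 itself had 80 counts over the WT libraries and 101 over those of CD38 KO (log2 fold change 0.51, edgeR adjusted p = 0.352). SLAMF9 had 1 and 3 counts.

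Most genes listed as signalling partners of SLAM receptors were expressed and changed, in both directions. Of 33 listed, 30 were tested, 14 rose, 9 fell and 7 were not past the threshold, so 76.7% were called beside 44.4% of all tested genes. Among those with a mean of at least 5 CPM, 20 of 25 were called, 80%, beside 62.3% at that level, and the median log2 fold change of the 30 was 0.12.

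The inhibitory phosphatase SHP-1 (PTPN6) was at 404.3 ± 13.8 CPM in WT and 624.1 ± 21.9 in CD38 KO (SD, n = 3), a rise of 0.63 on the log2 scale (edgeR adjusted p = 2.92e-11). The adaptor DOK2, which restrains RAS signalling, rose by 0.77, and the phospholipases PLCG1 and PLCG2, which release calcium signals, by 0.60 and 0.58. These 4 had the smallest adjusted p of the list.

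The other genes here were named for their roles after their values were seen. FYN, the kinase that SAP recruits, rose from 113.4 ± 3.55 CPM in WT to 130.0 ± 4.48 in CD38 KO (SD, n = 3), by 0.20 on the log2 scale, CSK, which restrains SRC kinases, by 0.37, and SHP-2 (PTPN11) by 0.33. SHIP-1 (INPP5D) was lower, at -0.20. The kinase LCK had 29 counts over the WT libraries and 10 over those of CD38 KO and was not tested.

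The 3 largest differences of this list were in genes of low level. The kinase PRKCQ, which SAP links to SLAM signalling in T cells, rose from 0.536 ± 0.142 CPM in WT to 2.94 ± 0.166 in CD38 KO (SD, n = 3), by 2.46 on the log2 scale. PTPRC (CD45) fell from 110 counts in WT to 16 in CD38 KO (log2 fold change -2.59, edgeR adjusted p = 0.00226; leaving out CD38 KO replicate 1 gave -1.99, leaving out replicate 2 gave -3.43, and limma-voom gave -3.36). The integrin chain ITGAM, a partner of SLAMF7 in macrophages that is also among the myeloid markers, fell from 1.64 ± 0.273 CPM in WT to 0.361 ± 0.0371 in CD38 KO (SD, n = 3).

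**Figure D5:**
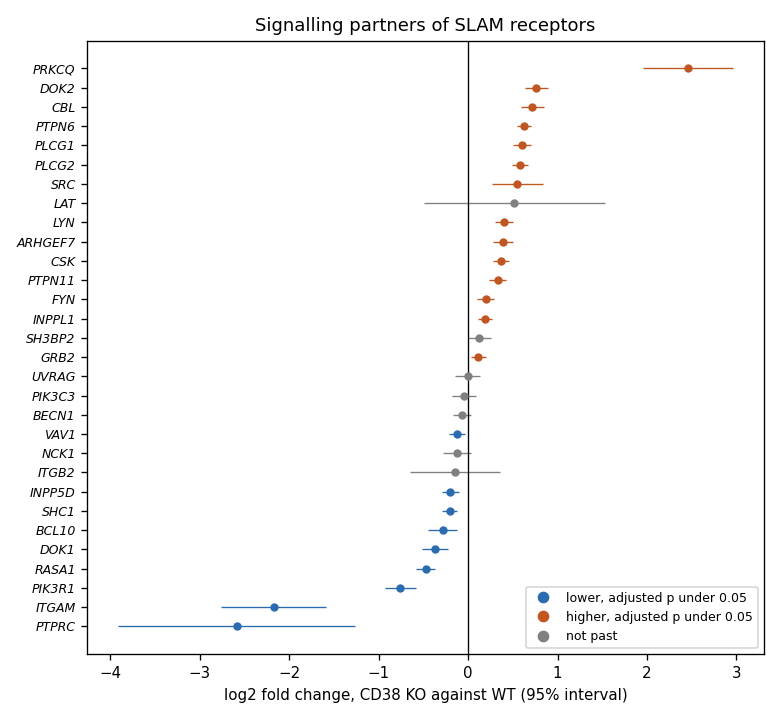
Log2 fold change of CD38 KO against WT (horizontal axis) with 95% intervals for the 30 tested signalling partners of SLAM receptors; blue is lower and orange higher at an edgeR adjusted p under 0.05, grey is not past it. The points run from PTPRC at -2.59 to PRKCQ at 2.46, with 14 orange, 9 blue and 7 grey.

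Of 10 transcription factors listed as regulators of lymphoid and plasma cell genes, 7 were tested, 4 rose, 1 fell and 2 were not past the threshold (71.4% called, beside 44.4% of all tested genes). IKZF1 (Ikaros) fell by 0.88 on the log2 scale. RUNX3 rose by 0.64, PRDM1 (BLIMP-1), the plasma cell repressor, by 0.23, and IKZF3 (Aiolos) by 0.26. Their part in the SLAM gene changes was not tested.

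SLAMF6 and SLAMF7 were set beside all other protein-coding genes with a mean of at least 5 CPM, 9586 in number, by the root mean square distance between log2 CPM profiles over the 6 libraries. Nearest to SLAMF6 were CD38 (distance 0.977), AHNAK (1.05), a giant scaffold protein, and SQLE (1.08), an enzyme of sterol synthesis. Their log2 fold changes were -5.39, -5.84 and -4.51. CD38 was the edited gene and the cells had been sorted on it, so its difference was set by the design. None of these genes was as close to SLAMF6 as the genes named next were to SLAMF7. Nearest to SLAMF7 were PFN1 (0.0133), the actin-binding profilin, GMPS (0.0159), an enzyme of GMP synthesis, and SSR2 (0.0160), a subunit of the translocon-associated complex, with -0.36, -0.37 and -0.39. With only 2 groups such a profile is mostly the difference between them.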

How the data were processed

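Raw read counts per gene were deposited by the authors as 1 table with a column for each of the 6 libraries. STAR 2.7.9a, Partek and DESeq2 are named, without a role, per the submitters' processing notes, and no source used here gives the build, annotation, counting program or strand setting. Each Ensembl identifier was kept once (200 repeated lines held the same counts). CD38 KO was compared with WT over all genes with edgeR 4.0.16 in R 4.3.3, using its quasi-likelihood test (TMM factors, filterByExpr, robust dispersions, no covariate), with Benjamini-Hochberg adjustment over all 20120 tested genes and a threshold of 0.05. Exon lengths and positions came from GENCODE 29. The procedure was tested on simulated counts. The replicates were prepared from sorted populations, per the labels' protocols. No pair of libraries agreed within sampling noise (chi-square per degree of freedom at least 5.96).

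The members and the 145 list entries were chosen with earlier results of these data known. The genes named are all members, the called genes with the 4 smallest adjusted p of every list that holds no markers, the family relatives, CD38, the plasma cell markers, and the 3 genes nearest in profile to SLAMF6 and to SLAMF7. Others were named after their values were seen. One entry, C1orf111, matched no symbol, and 1 gene of the signalling list is not reported here. The 14 alternatives were other or no composition factors, no filter, DESeq2 1.42.0, limma-voom (limma 3.58.1), genes kept only at 1 CPM in 3 libraries, the replicate number as a block, and each library left out.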

Additional observations from a re-analysis of the deposited data

How the results depend on the processing

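Of the 7 tested members, 4 were called, and 2 with library size alone, where over all genes 3632 were higher and 5570 lower (4592 and 4342 with TMM factors). Leaving out 1 library gave 2 to 4 called members, 2 without WT replicate 2. SLAMF6 and SLAMF7 kept their direction and call under all 14 alternatives, and CD48, CD84 and CD244 stayed short of the threshold in every alternative that tested them. The log2 fold change of SLAMF1 was 0.69 with library size alone and 0.76 with no filter on low counts, both short of the threshold, and 0.61 to 0.90 with 1 library left out. That of LY9 was 0.054 with library size alone and 0.096 to 0.17 with 1 library left out. The cause of these losses was not tested. With the replicate number as a block, 4 members, 23 signalling genes and 20 genes of the region were called, and no call of a member changed. Same-numbered libraries deviated together with correlations of 0.034, -0.0080 and -0.021, so the numbers were not taken as pairs. Leaving out 1 library gave 21 to 23 called signalling genes and 17 to 20 genes of the region. The filter at 1 CPM left SLAMF1, CD84 and CD244 untested. At these depths the members with fewer than 100 counts per library (SLAMF1, CD84, CD244, SLAMF8, SH2D1A and SH2D1B) allow wide intervals only. SLAMF6, with 2, 56 and 6 counts in CD38 KO, had the widest interval of the tested members, -7.08 to -2.82 on the log2 scale.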

Other observations

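Among the markers of other lymphocytes, named here after their values were seen, 3 genes rose: 1 of the 4 tested T cell markers, 1 of the 4 tested NK cell markers and 1 of the 3 tested B cell markers. CD3E, a chain of the T cell receptor complex, was at 0.979 ± 0.0760 CPM in WT and 4.83 ± 0.359 in CD38 KO (SD, n = 3; log2 fold change 2.30), whereas CD3D had 2 counts in each group and CD3G 10 and 2. CD247, the zeta chain, was at 0.887 ± 0.293 CPM in WT and 0.542 ± 0.135 in CD38 KO (SD, n = 3) and was not past the threshold, but passed it when WT replicate 3 (edgeR adjusted p = 0.0382) or CD38 KO replicate 1 (0.0487) was left out. KLRF1 (NKp80), an activating receptor of natural killer cells, was at 1.02 ± 0.0823 CPM in WT and 2.80 ± 0.347 in CD38 KO (SD, n = 3; log2 fold change 1.46), whereas NCR1 had 1 count in each group and KLRD1 5 and 7. NCAM1, the most abundant NK cell marker of the list, fell from 64.1 ± 3.69 CPM in WT to 56.1 ± 2.35 in CD38 KO (SD, n = 3), by 0.19 on the log2 scale (edgeR adjusted p = 0.00653), a call lost when WT replicate 1 (0.0502) or CD38 KO replicate 3 (0.0603) was left out. CD79A, a chain of the B cell receptor complex, rose from 23 counts in WT to 64 in CD38 KO (log2 fold change 1.59, edgeR adjusted p = 0.0264), whereas CD79B and CR2 fell. The CD79A call was lost when WT replicate 1 (edgeR adjusted p = 0.127), WT replicate 3 (0.0795) or CD38 KO replicate 3 (0.159) was left out. Of all tested genes 22.8% rose and 21.6% fell.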
